A study of Mus musculus with 14 samples.

Results

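The liver of wild-type C57BL/6J mice at 52 weeks of age was compared between 3 males and 2 females by RNA sequencing. C57BL/6J is a common inbred laboratory strain. These 5 libraries were chosen by their sample labels from 14, and the comparison was made over the autosomal and mitochondrial genes, 50262 of the 54532 genes in the table. The 4184 genes of the X and Y chromosomes and 86 genes of unplaced scaffolds were left out of it. The females are numbered 2 and 3. Per its design text the study used 3 mice in each group, and a wild-type female number 1 is not analysed here. The other 9 libraries come from Abcb11-/- C57BL/6J mice of the same age, which lack a working bile salt export pump. Of these, 3 livers of males and 3 non-tumour livers of females are set beside the wild-type values, and 3 tumour libraries of females entered only the shared fit. Liver tissue was frozen on dry ice and total RNA extracted, with no sorting of cells in the labels, so each library can hold hepatocytes together with every other cell type of the organ.

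Male and female mouse livers are known to differ because the pituitary releases growth hormone in pulses in males and almost continuously in females. Each pulse activates the transcription factor STAT5b in hepatocytes, BCL6 represses female-biased genes in males, and CUX2 represses male-biased genes in females. The best known outputs are major urinary proteins, which carry pheromones in male urine, and cytochromes P450, sulfotransferases and flavin monooxygenases, which modify steroids, bile acids and drugs.

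The 5 wild-type libraries held 14745140 to 19346354 counts, a range that overlapped that of the knockout libraries. The 3 male libraries stood apart in several ways from both the wild-type females and the knockout males. They had a count for 14844 to 16975 autosomal and mitochondrial genes, against 20635 and 21017 in the females and 18293 to 20386 in the knockout males. Their clock score, the mean log2 level of 8 evening genes of the daily clock minus that of 4 morning genes, lay between −1.85 and −1.42, against 1.27 and 1.73 in the females and 2.70 to 3.45 in the knockout males. As a check of genotype, Abcb11 stood at 270.2 to 489 CPM in the wild-type libraries and at 17.9 to 103.6 CPM in the 6 knockout libraries used here. Male 3 also stood apart from males 1 and 2. Its 10 B and plasma cell marker genes summed to 12144 CPM, the counts scaled to the library's size by TMM, against 111 and 85.7 CPM in males 1 and 2 and 453 and 248 CPM in the females. Its hepatocyte markers summed to 26529 CPM, against 47520 to 55717 in the other 4 libraries. Hour of collection is not in the labels, so it cannot be told apart from sex here. Counts of list members called are also given without male 3, or without another library, where that moves them by over 1.5 times.

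**Figure D1:**
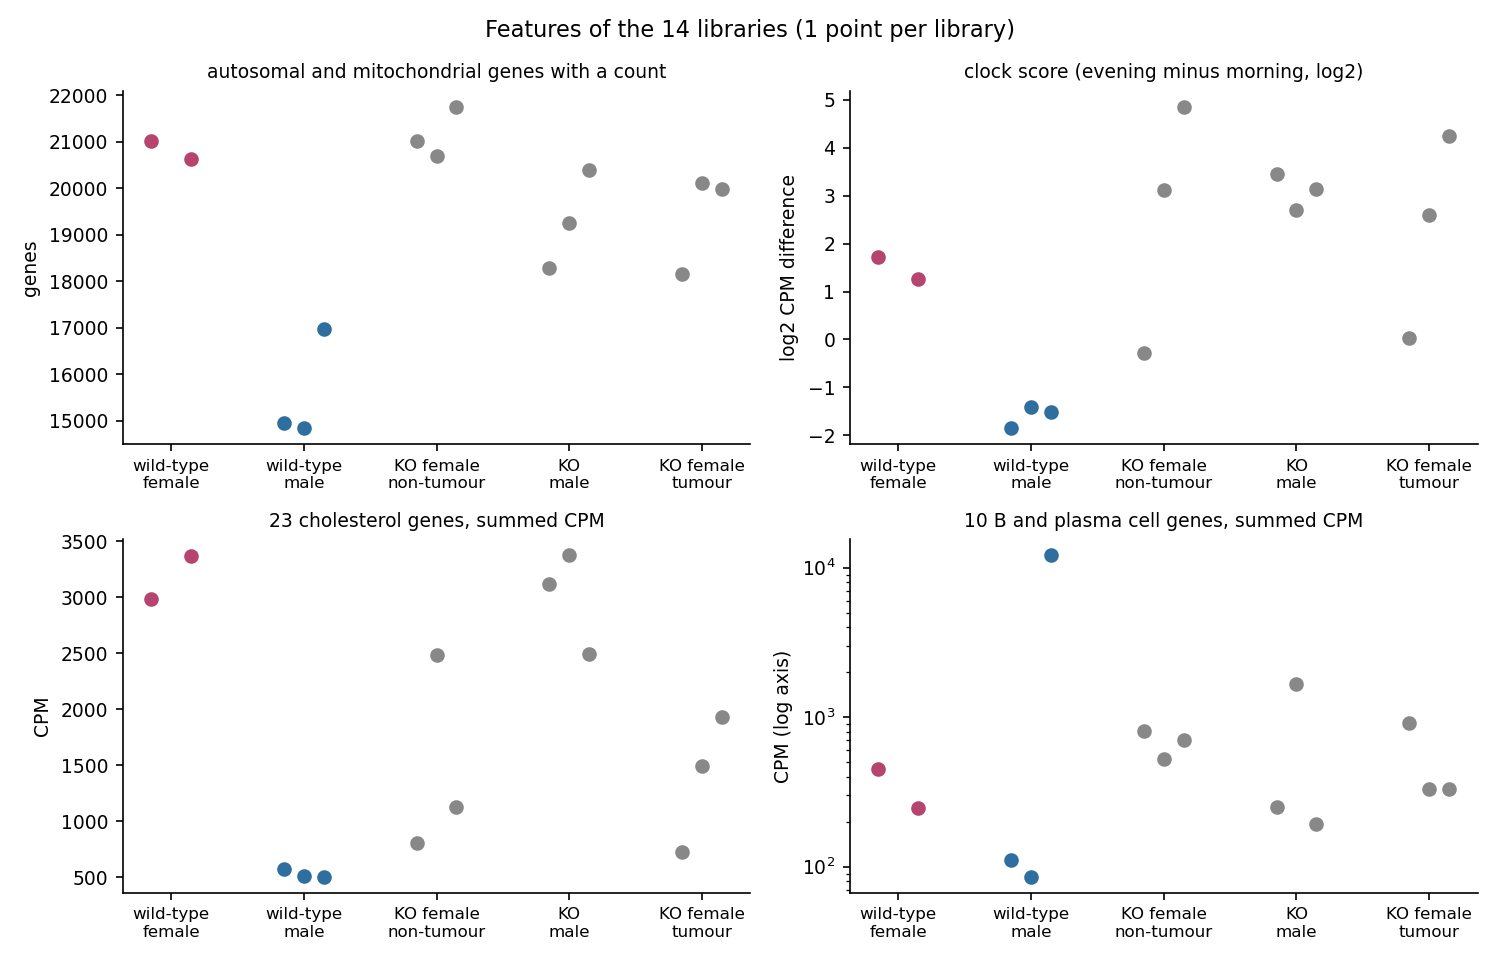
Features of the 14 libraries, 1 point per library, by group: genes with a count, clock score (log2 CPM), summed CPM of 23 cholesterol synthesis genes and summed CPM of 10 B and plasma cell genes (log axis). The 3 wild-type males lie lowest in the first 3 panels, and wild-type male 3 lies highest in the last at 12144 CPM.

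After a filter on low counts, 17336 of the 50262 genes were tested (17304 autosomal and 32 mitochondrial), and 4017 of them, 23.2%, differed between wild-type males and females at an adjusted p under 0.05 (edgeR quasi-likelihood test). Of these, 1236 were higher in males (7.13% of genes tested) and 2781 were lower in males (16.0%). The median log2 difference, males minus females, was 1.60 in size over the called genes and −0.11 over all genes tested. By fitted values, called genes over 8-fold apart were 986 lower and 113 higher in males. Among all called genes, 674 had no count in any wild-type male and 22 had none in any wild-type female. Fold changes of such genes are fitted and are not measured sizes, so the 986 and 113 cannot be compared as measured counts. The libraries of the sexes did not overlap for 8513 genes, 49.1% of those tested, and for 4004 of the 4017 called.

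These counts rest heavily on the 2 females. With female 3 left out 1253 genes were called and with female 2 left out 2227, where the lone female is assumed to vary like the other groups. A fit of the 5 wild-type libraries alone called 1777, and the clock score as a covariate left 1773. In all, 1066 calls held with each of the 5 libraries left out in turn, 176 higher and 890 lower in males. The share of calls that were higher in males was 30.8% with TMM scaling and 38% to 43% with no low-count filter, a 1 CPM filter, RLE scaling or DESeq2. It was 26.9% with the clock score as a covariate.

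**Figure D2:**
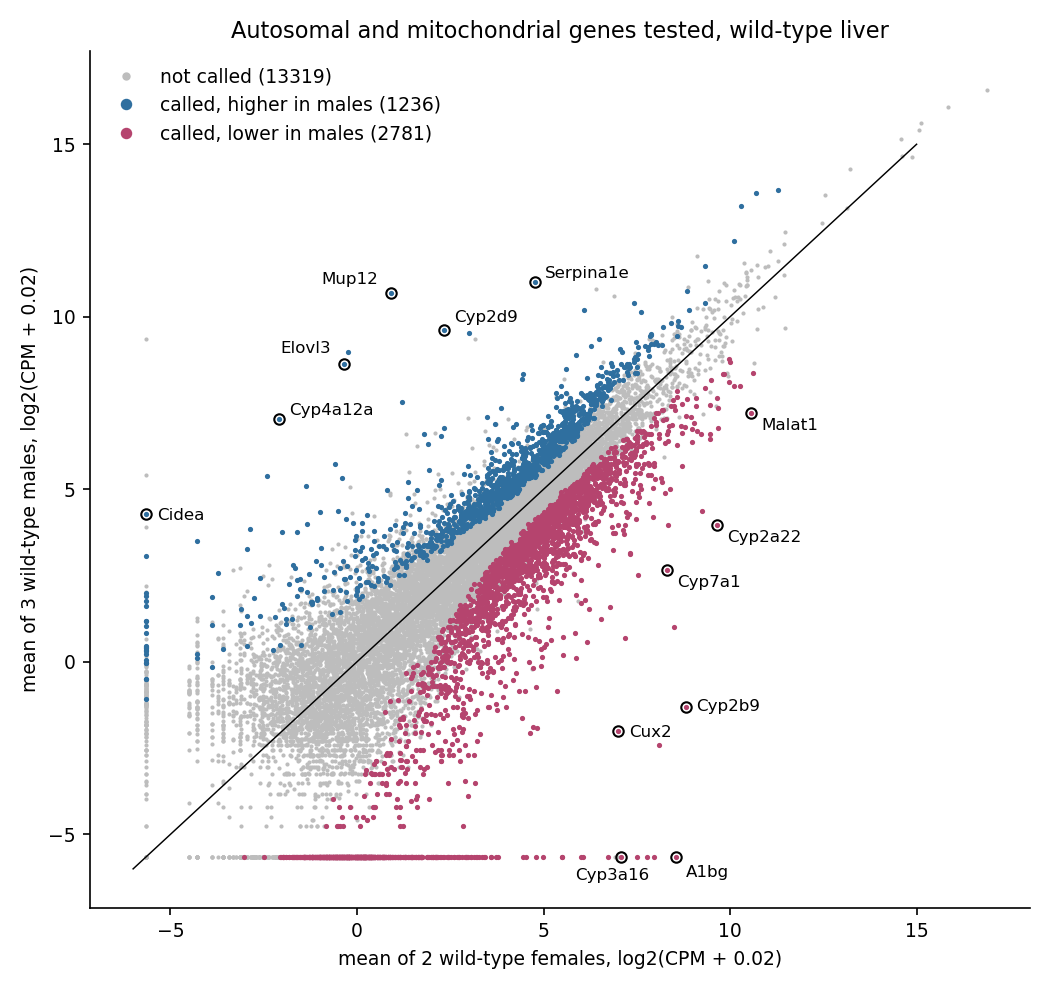
Mean level of each of 17336 genes in the 2 wild-type females (x axis) and the 3 wild-type males (y axis), as log2 of CPM plus a small constant. The line marks equal levels. Blue points are 1236 genes called higher and red points 2781 called lower in males, and the row of points along the bottom are genes with no count in any male.

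The 15 protein-coding genes with the largest shift towards females had few or no counts in males. Of these, 14 had no count in any of the 3 males and Cyp2a4 had 10 counts, all in male 3. For a gene without counts, the fold change is given as a lower bound: the lowest female library over the highest level that 3 counts stand for in a male library. Of the 15, 14 are named here, among them 4 sulfotransferases and 4 P450 enzymes.

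Sult2a1 (ENSMUSG00000078798, chromosome 7, 13796246 to 13837409, GRCm38) encodes a sulfotransferase that adds sulfate to bile acids and hydroxysteroids. It stood at 368 and 132 CPM in females 2 and 3, with no count in a male, and was at least 615-fold higher in females (adjusted p = 0.000534). Sult2a2 stood at 267 and 96.6 CPM, at least 449.7-fold higher, and Sult2a3 at 18.3 and 5.73 CPM, at least 26.7-fold higher (adjusted p = 0.00097 and 0.00498). Sult3a1, of another branch of the family, stood at 31.4 and 12.5 CPM and was at least 58.3-fold higher (adjusted p = 0.0182). In all 4, female 2 was above female 3, and both were far above every male. The Sult2a genes are near-identical copies, so the counting may have split reads among them.

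The P450 enzymes among the 15 hydroxylate steroids and drugs. Cyp3a16 (ENSMUSG00000038656, chromosome 5, 145436309 to 145469723) stood at 185 and 84.7 CPM in the females, and Cyp3a44 at 167 and 43.5 CPM. They were at least 395-fold and 203-fold higher in females (adjusted p = 1.57e-05 and 0.0111). Cyp2b13 reached 101 and 335 CPM, at least 468-fold higher (adjusted p = 0.0263), here with female 3 above female 2. Cyp2a4, a steroid 15-alpha-hydroxylase, stood at 335 and 211 CPM in females and 0, 0 and 0.505 CPM in males 1 to 3, a log2 difference of −10.40 ± 1.22 (SE; adjusted p = 0.000235). Reads of these Cyp3a and Cyp2 copies can also be shared, so single members of a family are uncertain.

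Hao2 and Aldh3b3 are oxidising enzymes of other kinds. Hao2, a peroxisomal hydroxy acid oxidase, stood at 52.9 and 37.7 CPM, at least 176-fold higher than in males, and Aldh3b3, an aldehyde dehydrogenase, at 39.3 and 50.4 CPM, at least 183-fold higher (adjusted p = 0.00103 and 0.00854). Female 3 was above female 2 for Aldh3b3 and below it for Hao2, and both females were above every male.

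The remaining 4 are not known as drug-metabolising enzymes. A1bg, a secreted plasma glycoprotein, had the largest fitted difference and the widest gap between the females, 729 and 14.1 CPM, and was at least 65.5-fold higher than in males (adjusted p = 0.0343). Sybu, an adaptor for kinesin cargo, stood at 21.4 and 24.5 CPM, at least 99.6-fold higher (adjusted p = 0.000123). Ptp4a1, a tyrosine phosphatase, stood at 6.17 and 13.1 CPM and was at least 28.8-fold higher, and 4933411K16Rik at 8.79 and 9.69 CPM, at least 41.0-fold higher (adjusted p = 0.000222 and 0.00032). The value of Ptp4a1 is uncertain, since the annotation holds another gene model of that name over the same place. That model had 0.811 and 1.40 CPM in the females and 2.07, 1.15 and 0.303 CPM in the males, and did not pass the test (adjusted p = 0.966). Of the 15, 3 lost their call when 1 library was left out: A1bg without female 3 or any single male (adjusted p = 0.0594 to 0.0647), Cyp2b13 without female 2, female 3 or male 3 (0.0685, 0.112 and 0.0506), and Sult3a1 without either female (0.0589 and 0.0687). In limma-voom with quality weights the adjusted p was 0.341 for A1bg, 0.222 for Aldh3b3, 0.182 for Cyp2b13, 0.0804 for Cyp2a4 and 0.0748 for Sult2a1. With the clock score as a covariate it was 0.0515 for A1bg and 0.127 for Cyp2b13. It was 0.0885 for A1bg in the 5 libraries alone and 0.055 for Sult3a1 in DESeq2.

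**Figure D3:**
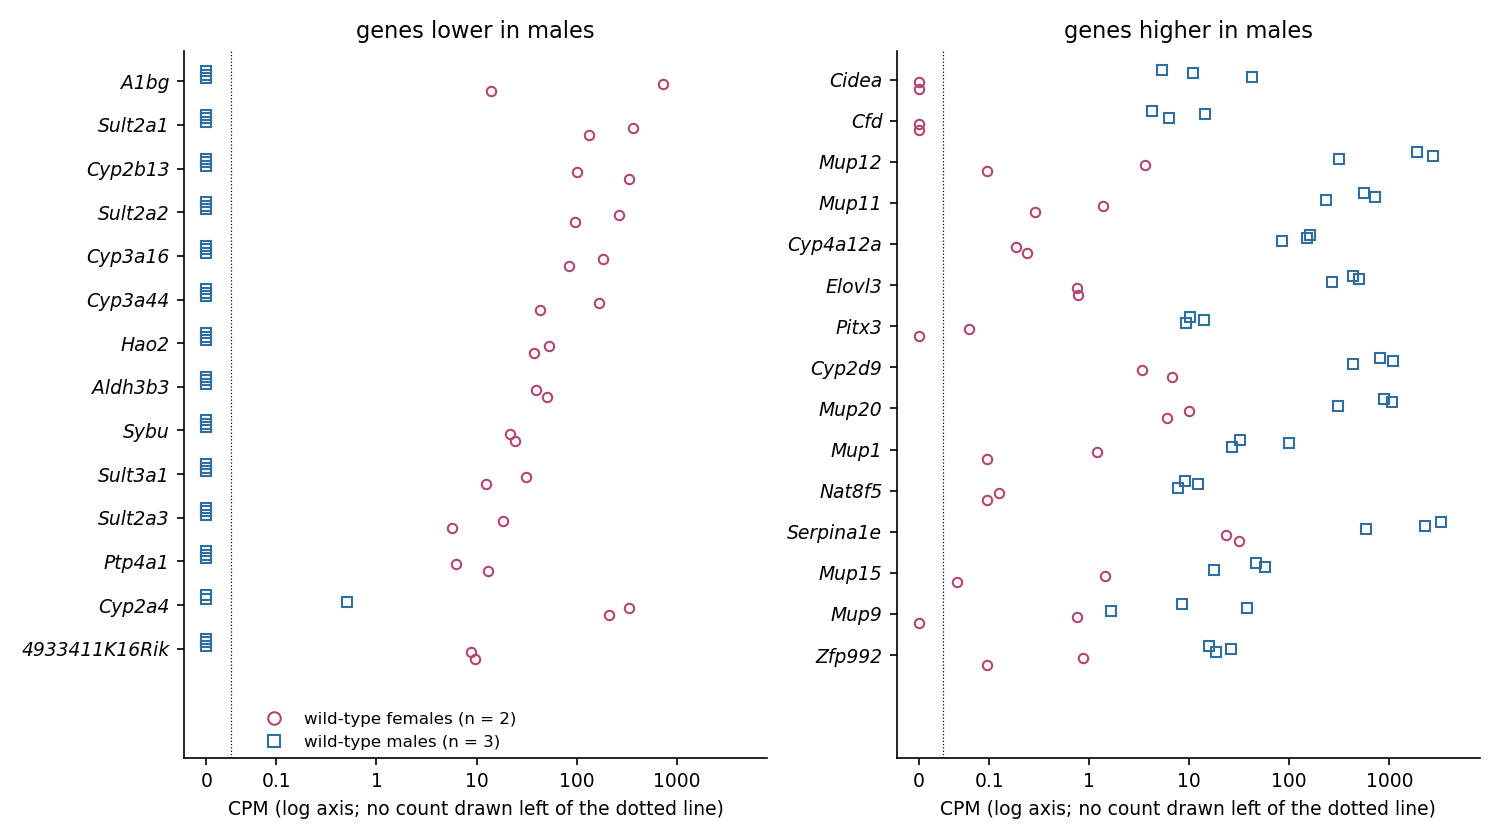
CPM of each wild-type library (log axis, with libraries without a count drawn left of the dotted line) for 14 of the 15 genes lower in males (left) and the 15 higher in males (right). Circles are the 2 females and squares the 3 males. The sexes do not overlap for any gene drawn, by the rule that named them.

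Absence of counts was itself a feature of the male libraries. Among called genes, 674 had no count in any wild-type male, and 22 had none in any wild-type female. Among all genes tested the numbers were 1019 and 194. Such a gene passed the low-count filter only through its counts in other groups. The 674 had a median of 0.952 CPM over the female means, 193 were protein coding, and 45 exceeded 5 CPM. In knockout males, 469 of the 674 (69.6%) had a count in every library and 26 had none in any. Across all 5 groups, 9 autosomal genes had no count in the wild-type males while exceeding 1 CPM in each of the other 11 libraries, among them Cyp2g1. In the same search 1 gene was found for the wild-type females and 0 for each of the 3 knockout groups. 4933411K16Rik was at 0 in wild-type males and at 6.03, 5.19 and 5.54 CPM in knockout males 1 to 3. The cause was not tested.

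The letters upstream of the start sites are shown for some of the genes named above or below for the direction and size of their difference. RefSeq gave a promoter for 19 of the 30 genes (GRCm38.p6), and each window below holds the 250 bases before the start, written 5′ to 3′ along the gene. Capitals mark a match, on either strand, to TTCNNNGAA (the core read by STAT5), CAAAGTCCA (a core read by HNF4A) or CACGTG (the E-box read by clock factors). The first pair holds the 2 female-high genes with a STAT5 core, A1bg (chr15:60921271-60921520, minus strand) and Sult3a1 (chr10:33857472-33857721, plus strand).
A1bg: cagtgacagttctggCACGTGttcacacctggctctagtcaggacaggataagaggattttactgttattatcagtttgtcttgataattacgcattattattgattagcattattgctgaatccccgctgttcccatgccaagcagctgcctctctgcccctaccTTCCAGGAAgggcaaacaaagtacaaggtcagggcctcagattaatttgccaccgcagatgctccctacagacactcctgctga
Sult3a1: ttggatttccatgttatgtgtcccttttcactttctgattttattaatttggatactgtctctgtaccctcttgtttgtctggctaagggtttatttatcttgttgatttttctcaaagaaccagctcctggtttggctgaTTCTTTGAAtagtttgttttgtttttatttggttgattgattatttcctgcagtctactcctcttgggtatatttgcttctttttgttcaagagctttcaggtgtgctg
The core lies 84 to 76 bases before the start of A1bg and 109 to 101 bases before that of Sult3a1, and A1bg also holds an E-box. The next pair, Cyp3a16 (chr5:145469724-145469973, minus strand) and Cyp3a44 (chr5:145805875-145806124, minus strand), shows how alike neighbouring female-high P450 genes are.
Cyp3a16: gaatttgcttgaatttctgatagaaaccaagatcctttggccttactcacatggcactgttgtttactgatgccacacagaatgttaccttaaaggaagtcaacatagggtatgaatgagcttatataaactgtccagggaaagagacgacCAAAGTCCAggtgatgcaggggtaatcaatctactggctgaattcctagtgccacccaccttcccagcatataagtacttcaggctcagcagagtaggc
Cyp3a44: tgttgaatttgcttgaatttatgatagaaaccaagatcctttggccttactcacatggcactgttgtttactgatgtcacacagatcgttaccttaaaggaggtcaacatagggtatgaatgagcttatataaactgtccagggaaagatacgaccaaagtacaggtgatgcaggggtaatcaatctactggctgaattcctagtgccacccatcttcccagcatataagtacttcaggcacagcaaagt
These windows are 92.9% identical over their alignment (10 mismatches and 8 gap positions), and only that of Cyp3a16 holds the HNF4A core, 99 to 91 bases before the start. The last pair is from male-high genes, Mup11 (chr4:60662396-60662645, minus strand) and Mup15 (chr4:61439705-61439954, minus strand).
Mup11: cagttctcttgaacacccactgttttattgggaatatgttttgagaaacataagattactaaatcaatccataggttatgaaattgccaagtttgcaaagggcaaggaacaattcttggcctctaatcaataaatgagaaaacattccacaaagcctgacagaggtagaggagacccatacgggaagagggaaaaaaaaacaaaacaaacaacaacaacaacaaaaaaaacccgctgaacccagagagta
Mup15: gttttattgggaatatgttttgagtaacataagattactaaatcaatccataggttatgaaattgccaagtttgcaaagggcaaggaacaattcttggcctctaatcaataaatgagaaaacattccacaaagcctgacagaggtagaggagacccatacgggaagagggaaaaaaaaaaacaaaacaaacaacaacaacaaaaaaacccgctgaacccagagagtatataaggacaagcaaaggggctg
Mup11 and Mup15 are 81.5% identical, with 1 mismatch and 50 gap positions, and hold none of these 3 motifs in the window. Most of these gap positions are overhangs at the ends, where the 2 windows are offset. The 81.5% is therefore not to be ranked against the 92.9% of the Cyp3a pair. Of the 11 female-high and 8 male-high genes with a promoter, 2 and 0 held the STAT5 core, against 7.18% of 27025 promoters and 6.23% of the 11742 of tested genes. Over all calls the share was 6.16% of genes higher and 5.34% of genes lower in males. The E-box was in 9.9% and 8.43% of them, against 7.93% of tested genes, and the HNF4A core in 0.11% and 0.506%, against 0.477%. A match describes the letters and does not show a bound site.

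The 15 protein-coding genes with the largest shift towards males included major urinary proteins, P450 enzymes, a fatty acid elongase and a serpin. Mup12 (ENSMUSG00000094793, chromosome 4, 60737383 to 60741326) stood at 1909.8, 2756 and 315 CPM in males 1 to 3 and 3.62 and 0.0964 CPM in females 2 and 3, a log2 difference of 9.84 ± 2.16 (adjusted p = 0.00894). Mup11 stood at 554, 719 and 232 against 1.37 and 0.289 CPM (log2 difference 9.28 ± 1.12, adjusted p = 0.000395), and Mup20, the pheromone darcin, at 880.3, 1052 and 307 against 9.98 and 5.93 CPM (6.55 ± 1.90, adjusted p = 0.0297). For these 3 genes male 3 was the lowest male, still well above both females. Mup1, Mup15 and Mup9 were higher in males by 6.44, 5.82 and 5.46 on the log2 scale (adjusted p = 0.0107, 0.0233 and 0.0265), and Mup9 ran from 1.67 CPM in male 3 to 37.9 CPM in male 2. The Mup genes share most of their sequence, so the split of reads among them is uncertain.

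P450 enzymes and a fatty acid elongase rose in males. Cyp4a12a (ENSMUSG00000066071, chromosome 4, 115299046 to 115332815), a fatty acid omega-hydroxylase, stood at 159.6, 149.8 and 85.2 CPM in males and 0.187 and 0.241 CPM in females, a log2 difference of 9.20 ± 1.14 (adjusted p = 0.000222). Cyp2d9, a testosterone 16-alpha-hydroxylase, stood at 814, 1097 and 436 against 3.37 and 6.65 CPM (7.28 ± 1.92, adjusted p = 0.0207). Elovl3 (ENSMUSG00000038754, chromosome 19, 46131897 to 46135307), which elongates very long chain fatty acids, stood at 429, 503 and 267 against 0.748 and 0.771 CPM (9.02 ± 0.93, adjusted p = 5.93e-05). Every male was far above both females for these 3 genes, and male 3 was the lowest male in each.

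Serpina1e, of the alpha-1-antitrypsin cluster, stood at 3296, 2267 and 584 CPM in males and 23.1 and 31.2 CPM in females (log2 difference 6.24 ± 1.83, adjusted p = 0.0314). Nat8f5, of a family of N-acetyltransferases, stood at 8.99, 12.2 and 7.67 against 0.125 and 0.0964 CPM (6.37 ± 1.36, adjusted p = 0.00575), and the zinc finger gene Zfp992 at 15.8, 26.1 and 18.5 against 0.873 and 0.0964 CPM (5.42 ± 0.80, adjusted p = 0.000434). Pitx3, a homeobox gene known from lens and midbrain, stood at 10.2, 14.1 and 9.28 CPM in males with 1 count in the females together, a ratio with a 95% interval from 71.96 to 15932 (adjusted p = 0.00387). The 3 males lay close together for Pitx3, Nat8f5 and Zfp992, while male 3 was well below males 1 and 2 for Serpina1e. The sexes did not overlap for any of the 4.

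Cidea and Cfd, best known from fat tissue, had no count in a female. Cidea, a lipid droplet protein, stood at 5.30, 10.8 and 42.4 CPM in males, at least 28.3-fold higher, and Cfd, complement factor D, at 4.27, 14.5 and 6.26 CPM, at least 22.8-fold higher (adjusted p = 0.0246 and 0.0267). Of the other fat cell markers listed, Adipoq and Lep had no count in any of the 5 libraries. Plin1 and Retn were not at 0 in all 5 but were too low to be tested. Of the 15 male-high genes, 11 lost their call when 1 library was left out. Without female 2 the adjusted p was 0.118 for Cidea, 0.121 for Cfd, 0.146 for Cyp2d9, 0.151 for Mup20, 0.0567 for Nat8f5 and 0.183 for Serpina1e. Without female 3 it was 0.152, 0.16, 0.141, 0.207, 0.0856 and 0.189 for the same 6 genes in that order. For Mup12, Pitx3, Mup1, Mup15 and Mup9 it was 0.0795, 0.0614, 0.111, 0.163 and 0.14 without female 3. Without male 2 it was 0.0704 for Mup9, and without male 1 it was 0.0522 for Serpina1e. With the clock score as a covariate it was 0.0582 for Cidea, 0.0709 for Cfd, 0.0515 for Mup1, 0.134 for Mup15 and 0.132 for Mup9. In limma-voom it was 0.225 for Cidea and 0.0675 for Cfd, and in the 5 libraries alone 0.119 for Mup9.

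Genes known for a bias in this tissue were then counted by list. The lists and their members were chosen with earlier results of these data known, and some members are named above. Their counts describe the lists and are no independent check. For each list in the text, the shares to set beside its counts are those of all genes tested, 16.0% lower and 7.13% higher in males. Of 39 tested members of a female-biased list, 27 were lower and 0 higher in males, against 16.0% and 7.13% of all genes tested, with a median log2 difference of −5.03 (−4.65 with genes without a count set at their bound). Nipal1, a magnesium transporter, stood at 16.59 and 32.5 CPM in females and 1.23, 1.07 and 0.656 CPM in males (log2 difference −4.65 ± 0.40, adjusted p = 1.58e-05). Abcd2, which moves very long chain fatty acids into peroxisomes, stood at 39.4 and 30.5 against 1.23, 1.36 and 3.38 CPM (−4.10 ± 0.52, adjusted p = 0.000165). The sexes did not overlap for 36 of the 39, against 49.1% of all genes tested.

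Of 39 tested members of a male-biased list, 15 were higher and 3 lower in males, with a median of 2.58. The 15 include Mup11, Mup12, Mup20, Mup1, Cyp4a12a, Cyp2d9 and Elovl3, given above. Gstp1, a glutathione transferase, stood at 503, 678 and 236 CPM in males and 61.7 and 55.2 CPM in females (log2 difference 3.02 ± 0.45, adjusted p = 0.000482). The 3 lower members were named after their values were seen. They are Socs2 at −1.97 and Cish at −1.69, both feedback inhibitors induced by STAT5, and Keg1 at −1.36 (adjusted p = 0.00118, 0.00112 and 0.007). Without female 3, 7 members were called higher and 3 lower. Of 18 tested major urinary protein genes 7 were higher and 0 lower, with a median of 4.68. Mup21 stood at 116, 138 and 35.7 CPM in males and 5.24 and 1.69 CPM in females (log2 difference 4.81 ± 0.83, adjusted p = 0.00195). Their summed level ran from 1993 CPM in the lowest male to 9226 CPM in the highest, against 403 and 625 CPM in the females, and without female 3 only 2 were called. There were 4 with the clock score as a covariate.

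The growth hormone axis itself was described through 30 receptors, signal proteins and transcription factors, of which 11 were lower and 0 higher in males (median −0.54). Among receptors, Ghr, the growth hormone receptor, stood at 436 and 323 CPM in females and 90.0, 81.5 and 62.2 CPM in males (log2 difference −2.28 ± 0.31, adjusted p = 0.000244). Prlr, the prolactin receptor, stood at 366 and 209 against 34.4, 42.5 and 34.0 CPM (−2.96 ± 0.43, adjusted p = 0.000366), and Esr1, the estrogen receptor, at 31.7 and 20.4 against 5.30, 3.86 and 4.74 CPM (−2.49 ± 0.29, adjusted p = 7.25e-05). Each male was below both females for all 3 receptors.

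Of the transcription factors named, Cux2 (ENSMUSG00000042589, chromosome 5, 121856366 to 122050102) had the largest difference, with 159 and 97.3 CPM in females and 0, 0.286 and 0.404 CPM in males (log2 difference −9.02 ± 0.73, adjusted p = 1.58e-05). Trim24 stood at 102 and 190.0 against 28.9, 39.2 and 37.5 CPM (−2.05 ± 0.28, adjusted p = 0.000244) and Onecut1, also called HNF6, at 21.2 and 9.01 against 1.49, 1.22 and 2.12 CPM (−3.22 ± 0.54, adjusted p = 0.000981). All 6 genes were called with each library left out and under each alternative run. Bcl6, the male repressor, had a log2 difference of 0.14 ± 0.44 and Stat5b one of −0.42 ± 0.22, and neither passed the test (adjusted p = 0.85 and 0.181). Igf1, the secreted target of growth hormone, had a difference of 0.23 ± 0.47 (adjusted p = 0.761).

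**Figure D4:**
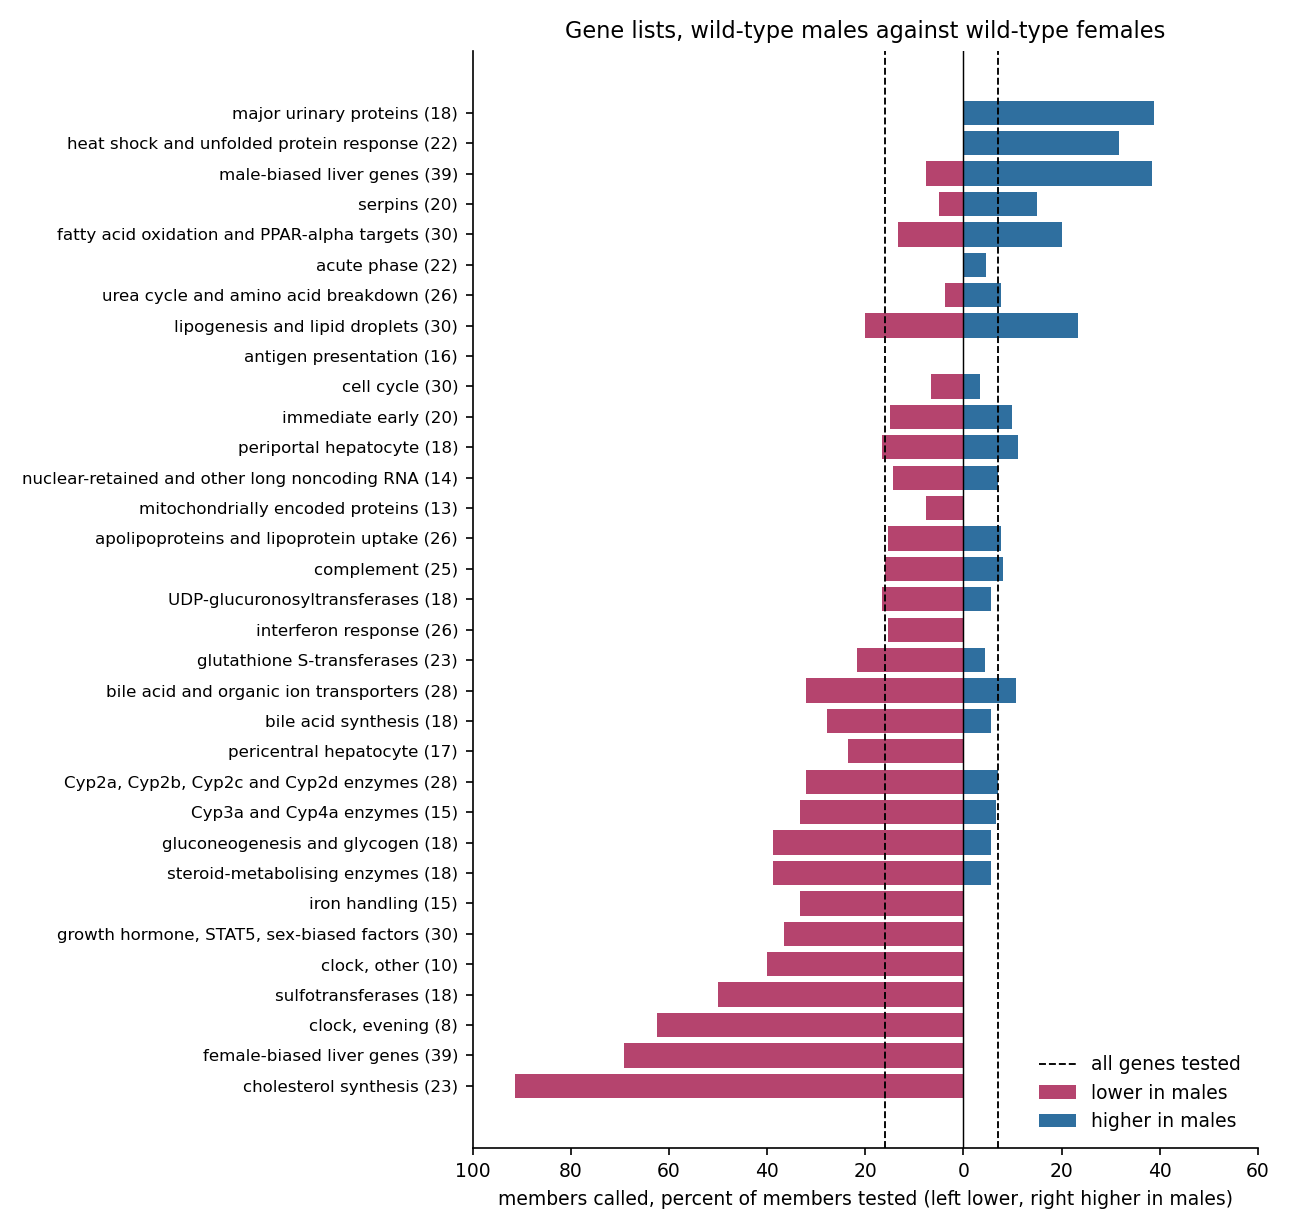
Share of tested members of each gene list drawn called lower (left, red) and higher (right, blue) in wild-type males, with the number tested in brackets and dashed lines at the shares of all genes tested, 16.0% and 7.13%. Cell type marker lists and the lists with the fewest tested members are not drawn. Among the lists drawn, cholesterol synthesis, with 21 of 23 members lower, lies at one end and the major urinary proteins, with 7 of 18 higher, at the other.

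Enzymes that oxidise and conjugate steroids and drugs were counted by family. Of 28 Cyp2a, Cyp2b, Cyp2c and Cyp2d genes, 9 were lower and 2 higher in males. Cyp2b9 stood at 379.7 and 516 CPM in females and 0, 0 and 1.16 CPM in males (log2 difference −9.98 ± 1.36, adjusted p = 0.000687). Cyp2a22 stood at 826 and 775 against 13.8, 16.60 and 16.4 CPM (−5.68 ± 0.93, adjusted p = 0.00148) and Cyp2c40 at 78.6 and 35.5 against 2.20, 2.08 and 1.01 CPM (−5.03 ± 0.95, adjusted p = 0.00405). All males lay below both females for each, and Cyp2b9 had counts in male 3 alone among the males. Without female 2 or female 3, 7 of the 28 were called lower and 0 higher, and limma-voom called 4 lower and 3 higher. In limma-voom the adjusted p was 0.0786 for Cyp2b9 and 0.124 for Cyp2c40.

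Of 15 Cyp3a and Cyp4a genes 5 were lower and 1 higher in males. Cyp3a59 stood at 134 and 184 against 5.56, 18.2 and 3.08 CPM (log2 difference −4.16 ± 0.70, adjusted p = 0.00146). Cyp3a25 stood at 1075 and 1370.3 against 166, 464 and 127 CPM (−2.28 ± 0.49, adjusted p = 0.00468, 0.0573 without female 3 and 0.0547 with the clock score as a covariate). Without female 3, 3 of the 15 were lower and 1 higher, and without male 3, 4 were lower and 3 higher. Unlike Cyp3a16 and Cyp3a44, which had no count in males, Cyp3a25 kept over 100 CPM in every male.

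Conjugating enzymes followed. Of 18 sulfotransferase genes 9 were lower and 0 higher in males. Besides the Sult2a genes, Papss2, which makes the sulfate donor, was lower in males, at −1.90 ± 0.36 and Sult1a1, a phenol sulfotransferase, at −1.58 ± 0.33 (log2 differences, adjusted p = 0.00216 and 0.0039). Of 18 UDP-glucuronosyltransferases 3 were lower and 1 higher, a share near that of all genes. Ugt1a6a stood at 63.4 and 65.5 CPM in females and 5.30, 10.5 and 7.47 CPM in males (−3.06 ± 0.56, adjusted p = 0.00237). Ugt1a5 was lower in males, at −2.40 ± 0.64 (adjusted p = 0.0149, 0.111 without female 2, 0.0525 without female 3, 0.0742 in the 5 libraries alone and 0.146 with the clock score), and Ugt1a genes share their last exons. Without either female 1 of the 18 was lower, without male 1 or male 2 there were 2, and 0 were higher in each case. Of 23 glutathione transferases 5 were lower and 1, Gstp1, higher, 26.1% of the list beside 23.2% of all genes tested. Gsta3 stood at 525 and 478 against 125, 103 and 92.5 CPM (−2.23 ± 0.49, adjusted p = 0.00538, and 0.0916 with the clock score as a covariate). Of the 23, 1 was lower without female 2, female 3 or male 1, 3 without male 2 and 2 without male 3, where 2 were higher. The clock score as a covariate left 1 lower and 2 higher.

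Of 7 flavin monooxygenases and aldehyde oxidases 4 were lower in males and 0 higher. Fmo4, of the first family, had 29.7 and 39.0 CPM in females and 12.4, 14.7 and 13.1 CPM in males (log2 difference −1.36 ± 0.27, adjusted p = 0.00289, and 0.0657 without female 3). Without female 3, 1 of the 7 was lower, and without male 3 there were 2. Of 18 steroid-metabolising enzymes 7 were lower and 1 higher (6 and 0 without female 3, 6 and 3 without male 3). Hsd17b6, a hydroxysteroid dehydrogenase, stood at 83.4 and 238 against 5.50, 12.5 and 8.12 CPM (−4.20 ± 0.54, adjusted p = 0.00019).

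Bile acids are made by a classical pathway, whose rate is set by Cyp7a1, and an alternative pathway that runs through Cyp7b1, and the 2 enzymes differed between the sexes in opposite directions. Cyp7a1 (ENSMUSG00000028240, chromosome 4, 6265612 to 6275633) stood at 437 and 197 CPM in females and 2.07, 10.7 and 5.95 CPM in males (log2 difference −5.67 ± 0.71, adjusted p = 0.000219). Every male lay far below both females. Cyp7b1 stood at 9.73 and 4.91 against 49.3, 67.2 and 14.8 CPM (2.58 ± 0.77, adjusted p = 0.0296), a call that was lost without either female (0.0906 and 0.227) and without male 1 or male 2 (0.0515 and 0.0593), in the 5 libraries alone (0.0542) and with the clock score as a covariate (0.14). Akr1d1, the 5-beta-reductase that bends the sterol ring, stood at 163 and 129.6 against 18.0, 12.95 and 16.2 CPM (−3.21 ± 0.32, adjusted p = 2.93e-05). Cyp2c70, which forms muricholic acids in mice, was lower in males, at −2.46 ± 0.53 (adjusted p = 0.00526). In all, 5 of 18 bile acid synthesis genes were lower and 1 higher in males. Without female 2, female 3 or male 2, 3 were lower and 0 higher, without male 1 there were 4 lower and 0 higher, and without male 3 there were 3 lower and 2 higher.

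Transporters of bile acids and other organic ions were split. Of 28 tested, 9 were lower and 3 higher in males, and without female 3, 5 were lower and 3 higher. Slco1a4, a sinusoidal uptake carrier, stood at 156 and 295 CPM in females and 18.6, 37.1 and 17.2 CPM in males (log2 difference −3.22 ± 0.54, adjusted p = 0.00102). On the canalicular side Abcc2, which exports conjugates, stood at 702 and 901 against 175, 247 and 174 CPM (−2.01 ± 0.35, adjusted p = 0.00118), and Atp8b1, a lipid flippase, was lower in males, at −1.90 ± 0.28 (adjusted p = 0.00043). Abcg2, an efflux pump, went the other way, at 22.5 and 12.5 CPM in females and 83.0, 109 and 51.8 CPM in males (2.21 ± 0.35, adjusted p = 0.000726). The sexes did not overlap for any of these 4 genes. Abcb11, the pump deleted in the knockout, had a difference of −0.30 ± 0.36 between wild-type males and females (adjusted p = 0.593).

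Of 23 cholesterol synthesis genes, 21 were called lower and 0 higher in males, against 16.0% and 7.13% of all genes tested. All 23 had non-overlapping libraries, against 49.1% of all genes tested, and the median log2 difference was −3.25. The genes summed to 2987 and 3365 CPM in the females and to 505 to 570 CPM in the males. Sqle, which makes squalene epoxide, stood at 68.8 and 60.3 CPM in females and 2.65, 4.08 and 2.98 CPM in males (log2 difference −4.32 ± 0.45, adjusted p = 4.65e-05), and Mvk, mevalonate kinase, at 17.6 and 34.6 against 1.10, 0.644 and 0.858 CPM (−4.90 ± 0.52, adjusted p = 5.17e-05). Sc5d, a late sterol enzyme, stood at 304 and 366 against 29.2, 32.6 and 35.3 CPM (−3.37 ± 0.39, adjusted p = 6.8e-05). With the clock score as a covariate 18 of the 23 were called lower. The summed level in knockout males was 2489 to 3375 CPM, near that of the wild-type females, and in non-tumour knockout females it ran from 801 to 2483 CPM.

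Of 30 genes of lipogenesis and lipid droplets, 7 were higher and 6 lower in males. Srebf1, the master regulator of fatty acid synthesis, stood at 203 and 288 CPM in females and 15.2, 19.7 and 20.1 CPM in males (log2 difference −3.75 ± 0.62, adjusted p = 0.00118). Elovl3, Cidea and Cidec, described here with the male-high genes and the fat cell markers, were on the higher side. Without female 2 the list had 3 called higher and 2 lower, without female 3 there were 1 and 3, and without male 1 there were 6 and 3. There were 3 higher and 2 lower with the clock score as a covariate. Of 26 genes of lipoproteins and their uptake 4 were lower and 2 higher, 23.1% of the list beside 23.2% of all genes tested. Without female 2 there were 5 lower and 0 higher, without female 3 there were 3 and 0, and without male 3 there were 4 and 8. Abca1, which loads HDL, was lower in males, with a log2 difference of −1.68 ± 0.23 (adjusted p = 0.000225).

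Of 30 genes of fatty acid oxidation and PPAR-alpha targets 6 were higher and 4 lower in males. Acot2, a mitochondrial thioesterase, stood at 134, 126 and 93.6 CPM in males and 24.3 and 14.02 CPM in females (log2 difference 2.62 ± 0.39, adjusted p = 0.000482), while its neighbour Acot3, a peroxisomal thioesterase, went the other way at 35.7, 47.3 and 21.4 against 239 and 142 CPM (−2.46 ± 0.46, adjusted p = 0.00214). Cpt2, a step of fatty acid import into mitochondria, was higher by 1.72 ± 0.33 (adjusted p = 0.00249, and 0.0535 without female 3). Without female 3, 1 of the 30 was higher and 4 lower, and without male 3, 10 were higher and 4 lower. The clock score as a covariate left 4 higher and 2 lower. Ppargc1a, a coactivator of oxidation genes, was lower in males, at −2.88 ± 0.45 (adjusted p = 0.000618).

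Of 18 genes of glucose metabolism 7 were lower and 1 higher in males. Without female 3 or male 1, 4 were lower and 0 higher, and without female 2 or male 2, 5 were lower and 0 higher. Pklr, the liver pyruvate kinase, stood at 56.4 and 73.0 CPM in females and 5.43, 6.66 and 3.23 CPM in males (log2 difference −3.67 ± 0.57, adjusted p = 0.000868). Irs1, an adaptor of the insulin receptor, stood at 21.8 and 21.4 against 2.39, 0.859 and 1.92 CPM (−3.63 ± 0.51, adjusted p = 0.000275). All 3 males were below both females for both genes.

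Clock genes were counted by the phase at which they are known to peak. Of 8 evening genes 5 were lower and 0 higher in males, of 4 morning genes 0 were called (0 at an unadjusted p under 0.05 in edgeR, and 0 by DESeq2), and of 10 other clock genes 4 were lower. Of the evening genes 1 was lower without female 3, and 3 were lower without male 2, without male 3 or in limma-voom. The clock score as a covariate, which is built from these genes, left 3 evening and 3 morning genes lower. Tef stood at 289 and 276 CPM in females and 38.3, 51.7 and 29.6 CPM in males (log2 difference −2.82 ± 0.50, adjusted p = 0.00149), and Nr1d2, a heme-sensing repressor, at 88.4 and 96.6 against 18.2, 25.7 and 15.5 CPM (−2.22 ± 0.47, adjusted p = 0.00493, and 0.0512 without female 3). Bhlhe40 was lower in males, at −3.13 ± 0.34 and Cry2, at −2.62 ± 0.38 (adjusted p = 5.17e-05 and 0.000372). Many genes of cholesterol and bile acid synthesis are known to follow the time of day, and the clock score moved with sex in every wild-type library. The part of the clock in those differences cannot be told apart from sex.

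Of 25 complement genes 4 were lower and 2 higher in males, 24.0% of the list beside 23.2% of all genes tested. There were 3 lower and 1 higher without female 2, 1 and 1 without female 3, 2 and 2 without male 2, and 2 and 5 without male 3. C6, a part of the membrane attack complex, stood at 102, 122 and 55.2 CPM in males and 4.43 and 5.06 CPM in females (log2 difference 4.29 ± 0.67, adjusted p = 0.000849), and C2 was lower in males, at −1.22 ± 0.24 (adjusted p = 0.00263). Of 20 serpins 3 were higher and 1 lower, 20% of the list beside 23.2% of all genes tested. Without either female 0 were higher and 1 lower, without male 1 or male 2 there was 1 of each, and without male 3 there were 5 higher and 1 lower. Serpina6, the carrier of corticosterone in blood, stood at 1085 and 135 CPM in females and 22.9, 18.3 and 20.8 CPM in males (−4.88 ± 0.69, adjusted p = 0.000463), with female 2 far above female 3. Of 22 acute phase genes 1, Hp or haptoglobin, was called, at 2.37 ± 0.80 (adjusted p = 0.0435). That call was lost without either female (0.114 and 0.259), without male 1 (0.135) and without male 2 (0.0501), in the 5 libraries alone (0.086) and with the clock score as a covariate (0.38). Without male 3, 2 of the 22 were higher. With the replicate number as a block 0 were higher and 2 lower, with a median of −0.37 against 0.49 in the main fit. With the clock score as a covariate 0 were higher and 1 lower, with a median of −0.80. The acute phase genes summed to 43430 CPM in male 1 and 10229 CPM in male 3. Of 15 iron genes 5 were lower and 0 higher, among them Slc40a1, the iron exporter ferroportin, at −1.54 ± 0.22 and Slc39a14, an iron and zinc importer, at −1.71 ± 0.28 (adjusted p = 0.000339 and 0.000788).

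Chaperones were higher in males in 7 members of their list. Of 22 genes of heat shock and the unfolded protein response 7 were higher and 0 lower, with a median log2 difference of 1.53, and the 22 summed to 5206 to 6234 CPM in males against 2074 and 2127 CPM in females. Hspa8, the constitutive HSC70, stood at 3303, 3004 and 2223 CPM in males and 693 and 582 CPM in females (log2 difference 2.16 ± 0.38, adjusted p = 0.00133). Hsp90aa1 stood at 244, 225 and 303 against 45.7 and 43.5 CPM, Hspb1 at 98.5, 96.9 and 69.2 against 13.6 and 14.1 CPM and Ddit3, a stress transcription factor, at 48.8, 45.6 and 53.1 against 13.6 and 18.1 CPM (adjusted p = 0.0106, 0.015 and 0.0237). The males lay above the females without overlap for all 4, but with female 2 or female 3 left out only 1 of the 22 was called. The adjusted p then was 0.0799 and 0.101 for Hsp90aa1, 0.108 and 0.123 for Hspb1, and 0.161 and 0.0987 for Ddit3. Only 3 of the 22 were called with the clock score as a covariate, and the adjusted p was 0.0729 for Hsp90aa1 and 0.193 for Ddit3.

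Of 26 interferon response genes 4 were lower and 0 higher in males, 15.4% of the list beside 16.0% of all genes tested. Without female 2, female 3 or male 1 there was 1 lower, without male 2 there were 2 and without male 3 there were 10. Limma-voom called 8 lower. Of 20 immediate early genes 3 were lower and 2 higher, 25% of the list beside 23.2% of all genes tested. There were 2 lower and 0 higher without female 2, 1 and 3 without female 3, and 1 and 1 without male 1. Of 30 cell cycle genes 2 were lower and 1 higher, with a median log2 difference of 1.38. There were 2 lower and 0 higher without female 2, 1 and 0 without female 3, 2 and 2 without male 1, and 2 and 3 without male 2. Without male 3, 4 were lower and 1 higher and the median was −0.87. The cell cycle genes summed to 468 CPM in male 3 and to 112 to 145 CPM in the other 4 libraries.

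Markers of the other cell types of the liver were counted in the same way. In whole tissue, fewer cells of a type and less RNA per cell cannot be told apart. Of 10 hepatocyte markers 1 was called higher in males and 0 lower, and 0 were called without female 2, female 3, male 1 or male 2. Endothelial markers had 3 of 10 higher and 0 lower, with 294 to 471 CPM summed in males and 178 and 213 CPM in females. Without female 3, 1 was higher, and without male 3 there were 6. Stab1, a scavenger receptor of sinusoidal endothelium, stood at 265, 207 and 139 against 59.1 and 79.9 CPM (log2 difference 1.55 ± 0.32, adjusted p = 0.00361, and 0.0502 without female 2), and Clec4g, a sinusoidal lectin, was higher by 1.04 ± 0.29 (adjusted p = 0.0183, 0.162 without female 3 and 0.188 with the clock score as a covariate). Of 11 Kupffer cell and macrophage markers 1, C1qa, was higher in males, at 1.68 ± 0.44 (adjusted p = 0.0135, 0.124 without female 3, 0.069 in the 5 libraries alone and 0.0663 with the clock score). Without male 2, 3 of the 11 were higher.

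Of 4 erythroid genes 3 were higher in males and 0 lower. They summed to 375 and 401 CPM in males 1 and 2, to 107 CPM in male 3 and to 69.9 and 56.6 CPM in the females. Hba-a1 and Hba-a2, the alpha globins, were higher by 2.25 ± 0.48 and 2.01 ± 0.42 (adjusted p = 0.00475 and 0.00387; without female 3, 0.0689 and 0.0611), and for Hba-a1 the adjusted p was 0.0502 in the 5 libraries alone. Without female 3, 0 of the 4 were called. Of 8 cholangiocyte markers 2 were lower, and 1 or 0 with 1 library left out. Spp1, osteopontin, stood at 248 and 112 CPM in females and 52.1, 60.1 and 40.2 CPM in males (adjusted p = 0.0451), and the call was lost with each of the 5 libraries left out (0.0804 to 0.339), with RLE or upper-quartile scaling (0.0596 and 0.0626), with the 1 CPM filter (0.0628), in limma-voom (0.122) and with the clock score (0.182). Cftr, a chloride channel, stood at 0.561 and 0.482 CPM in females with no count in a male (adjusted p = 0.016, 0.0604 without female 3, 0.0839 in limma-voom and 0.0741 with the clock score).

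Of 6 fat cell markers 2 could be tested and both were higher in males. Cidec, a lipid droplet protein that steatotic hepatocytes are also known to express, stood at 116, 149.5 and 66.0 against 5.74 and 4.38 CPM (log2 difference 4.45 ± 0.95, adjusted p = 0.00679; without female 2, 0.0605, and without female 3, 0.094). Adipoq and Lep were at 0 throughout the 5 libraries, while Plin1 and Retn were not at 0 in all of them but fell below the filter. The source of the fat cell marker counts was not tested. For the B and plasma cell, T and NK cell, neutrophil, stellate and antigen presentation lists 0 genes passed the edgeR test, with 0, 1, 2, 1 and 0 genes at an unadjusted p under 0.05. DESeq2 called 0, 2, 2, 0 and 0 of them, and limma-voom 0, 0, 1, 0 and 2. Male 3 alone was high for B and plasma cell genes (12144 CPM) and T and NK cell genes (148 CPM, against 5.69 to 14.1 CPM in the other 4 libraries). Without male 3, 9 of 16 antigen presentation genes, 2 of 10 B and plasma cell genes and 2 of 10 T and NK cell genes were called lower in males. The median log2 difference of the antigen presentation list was then −1.28, against 0.57 with male 3, and that of the other 2 lists −2.52 and −0.76, against 2.92 and 1.98. Without male 1 or male 2, 2 T and NK cell genes were called higher. Over all genes 4641 were called without male 3.

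Among noncoding classes, 189 of 670 antisense genes were lower and 7 higher in males, beside 16.0% and 7.13% of all genes tested, and of 517 genes of the annotation class TEC, transcripts that await experimental testing, 156 were lower and 28 higher. Whether counting used strand is not given in the sources used here, so reads of an antisense gene and its partner cannot be told apart. Autosomal lincRNA took 0.296% to 0.331% of counts in males and 0.537% and 0.672% in females. Leaving mitochondrial genes out of the total, the shares were 0.414% to 0.573% and 0.821% and 1.01%. Malat1, a nuclear RNA, stood at 1306 and 1707 CPM in females and 129, 131 and 181 CPM in males (log2 difference −3.36 ± 0.32, adjusted p = 2.7e-05), and Snhg14 at 8.17 and 7.56 against 1.03, 2.65 and 0 CPM (adjusted p = 0.0334, and 0.113, 0.145 and 0.0927 without female 2, female 3 and male 1). It was 0.22 for Snhg14 in the 5 libraries alone and 0.184 with the clock score as a covariate.

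The 4 lincRNA genes with the largest shift to females had no count in a male. Gm38102 stood at 10.4 and 10.6 CPM, A530001N23Rik at 7.98 and 8.48 CPM, Gm6135 at 10.5 and 5.11 CPM and 4932422M17Rik at 6.36 and 5.64 CPM in the females. They were at least 48.2, 37.2, 23.8 and 26.3-fold higher in females (adjusted p = 0.000165, 0.000573, 6.8e-05 and 9.72e-05). In the other direction C330002G04Rik stood at 37.1, 40.5 and 48.0 CPM in males and 0 and 0.337 CPM in females (log2 difference 7.78 ± 0.84, adjusted p = 5.17e-05). Gm26772 and Gm26668 were higher in males by 4.19 and 4.29, and 3930402G23Rik by 5.44 (adjusted p = 0.00139, 0.00208 and 0.0346). The last lost its call without either female or without male 1 or 2 (0.0556 to 0.226) and with the clock score as a covariate (0.146), where the adjusted p of C330002G04Rik was 0.0503.

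Mitochondrially encoded genes took 28.6% to 42.2% of counts in males and 33.3% and 34.6% in females. Of the 13 that encode proteins 1 was called, mt-Nd4l, a small subunit of complex I, with 913 and 502 CPM in females and 56.1, 92.9 and 114 CPM in males (log2 difference −3.01 ± 0.49, adjusted p = 0.000753). It overlaps mt-Nd4, so the assignment of its reads is uncertain. The median of the 13 was −0.07.

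The same sex comparison in Abcb11-/- liver, 3 males against 3 non-tumour females, called 64 genes, 0.369% of those tested, 32 in each direction. These libraries share none with the wild-type comparison. Of the 64, 29 were also called in wild type (45.3% of the knockout calls and 0.722% of the wild-type calls), 25 of them in the same direction. Over all 4017 wild-type calls 50.9% had the same sign in the knockout, against 49.4% of all genes tested. A direct test of the difference between genotypes called 1902 genes (11%), 390 above 0 and 1512 below, and 1730 of them were wild-type calls. The wild-type difference is a part of that contrast, so the wild-type calls are not independent of it. Genes picked for a large wild-type difference are favoured to pass it. The knockout count moved with single libraries, from 13 without knockout male 1 to 136 without knockout male 2, and DESeq2 called 452.

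Of the 30 genes with the largest shifts in wild type 27 had the same sign in the knockout, 6 were called there, and 7 were called for the difference between genotypes. A1bg, Cyp2b13, Cyp3a44, Sult3a1 and Sult2a3 had no count in a male of either genotype. For these genes that difference could not be estimated, so the lack of a call does not mean that the genotypes were alike. Sult2a1 stood at 211, 292 and 409 CPM in the knockout females and 0, 0.0731 and 0 CPM in the knockout males (adjusted p = 0.00749). Cyp4a12a stood at 411, 332 and 598 CPM in knockout males and 0, 0.356 and 0.0904 CPM in knockout females (log2 difference 11.57 ± 1.02, adjusted p = 8.82e-05). Cux2 stood at 85.4, 119 and 70.7 CPM in the females and 1.86, 2.27 and 0.678 CPM in the males of the knockout (−5.86 ± 0.59, adjusted p = 0.000242). Both genotypes thus separated the sexes without overlap at these 3 genes. Mup20 stood at 3509, 1744 and 5815 CPM in knockout males and 6.19, 14.3 and 4.39 CPM in knockout females, where the adjusted p was 0.0675.

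Other genes differed between the genotypes in their sex difference. Cyp3a16, at 0 in wild-type males and 185 and 84.7 CPM in wild-type females, stood at 2.26, 1.42 and 1.67 CPM in knockout females and 0.744, 0.731 and 2.60 CPM in knockout males. The difference between genotypes was −13.86 on the log2 scale (adjusted p = 0.000157). Its size is fitted and not measured, since the wild-type males had no count. The same holds for other genes without a count in a group. Elovl3 stood at 54.4, 26.8 and 76.7 CPM in knockout males and 4.56, 9.79 and 1.31 CPM in knockout females, a smaller gap than in wild type (difference 5.68, adjusted p = 0.003). Cyp7a1 stood at 104, 236 and 167 CPM in knockout females and 164, 194 and 170.3 CPM in knockout males, levels that overlapped (difference −5.72, adjusted p = 0.00195). Of 23 cholesterol synthesis genes 1 was called higher and 0 lower in knockout males, and all 23 were called for the difference between genotypes, while the female-biased list had 8 lower and the male-biased list 8 higher in knockout males. Protein-coding genes with the most negative genotype difference include Ptgds (−13.94), Cyp2g1 (−11.29) and R3hdml (−10.35), and those with the most positive include Pdgfrl (6.05), Mmp7 (5.72), Tuba8 (5.19), Cdkn1a (4.97) and Fam209 (4.59). Without female 3 the adjusted p was 0.0964 for Ptgds, 0.0628 for R3hdml, 0.0896 for Tuba8 and 0.0642 for Cdkn1a. Without female 2 it was 0.0521 for R3hdml, 0.103 for Tuba8, 0.102 for Cdkn1a and 0.074 for Fam209. With the clock score as a covariate it was 0.0697 for R3hdml, 0.0763 for Tuba8 and 0.118 for Fam209. The clock scores of the knockout groups overlapped, from −0.293 to 4.86 in non-tumour females and 2.70 to 3.45 in males. With the clock score as a covariate 536 genes were called for the difference between genotypes, against 1902 without it. The part of library quality in these differences was not tested.

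**Figure D5:**
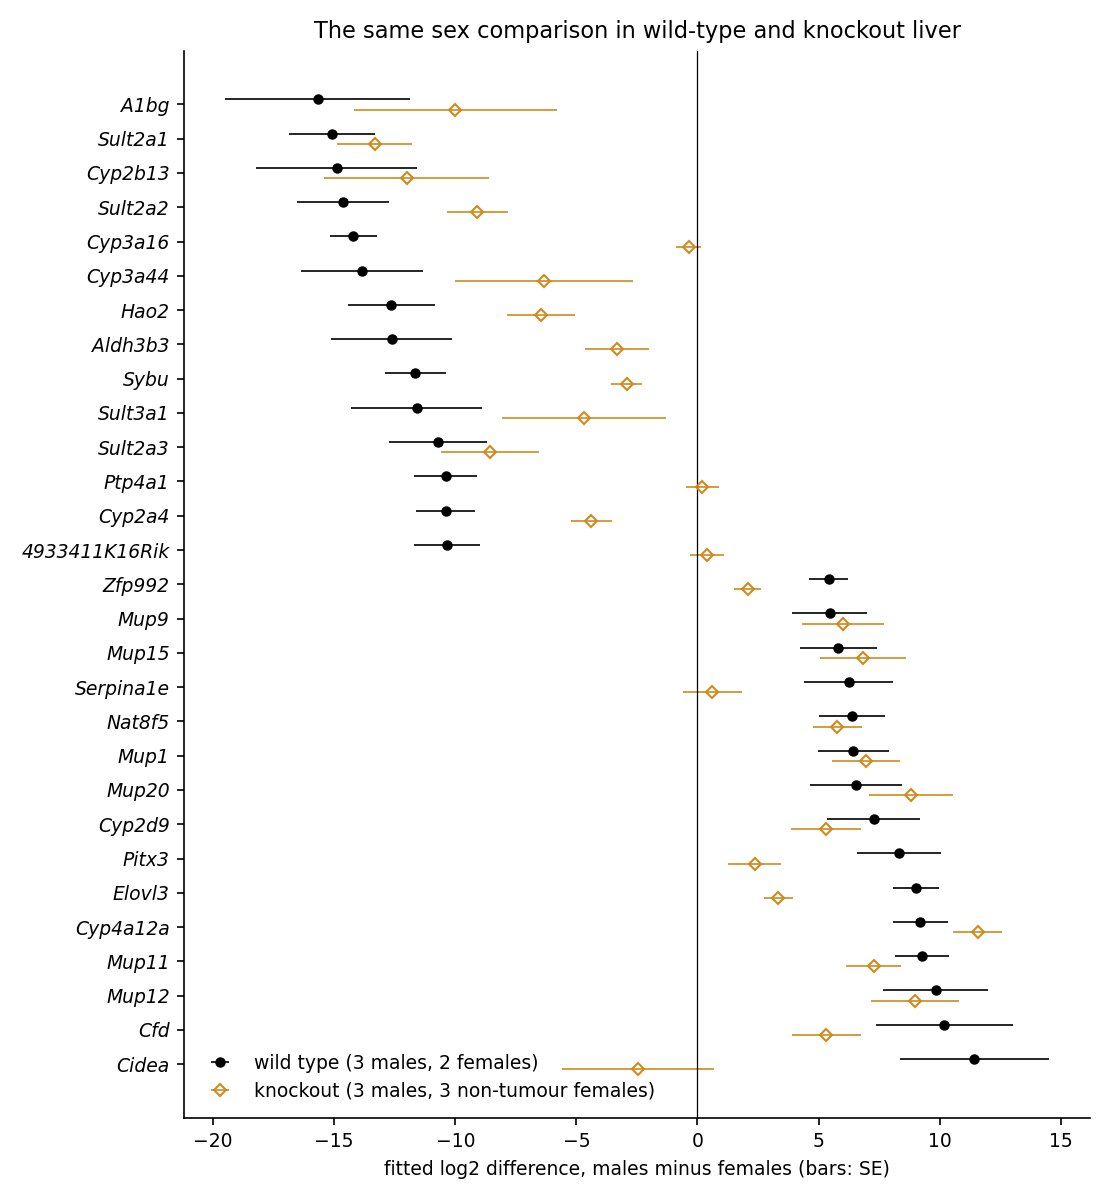
Fitted log2 difference, males minus females, with its SE, for the 30 genes with the largest shifts in wild type, of which 1 is not drawn. Circles are wild type (3 males, 2 females) and diamonds the knockout (3 males, 3 non-tumour females). Of the 30, 27 have the same sign in the knockout.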

How the data were processed

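Total RNA of frozen mouse liver was sequenced, and the deposited table holds raw read counts per gene next to FPKM values for the same libraries. Per the submitters' processing notes, reads were mapped with HISAT2 2.0.5 to GRCm38 and counted with featureCounts 1.5.0-p3. The strand setting and the treatment of reads shared by copies of a gene are not given in the sources used here. The deposited FPKM values were not used in a test. Counts of all 14 libraries in 5 groups were fitted together with edgeR 4.0.16 (TMM scaling, filterByExpr, robust quasi-likelihood test), which leaves 9 residual degrees of freedom. Tumour and non-tumour knockout female libraries share the numbers 1 to 3 and were fitted as independent. Their clock scores by number were 0.040, 2.606 and 4.256 against −0.293, 3.123 and 4.861. Whether a pair came from the same animal was not tested, and such pairs would make the 9 degrees of freedom too many. P-values were adjusted by Benjamini-Hochberg over all 17874 genes tested, with a threshold of 0.05. The SE of a log2 difference is its size over the square root of the F statistic. CPM values are TMM-scaled. Scaling by RLE moved the median difference of all genes by 0.105.

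Named genes are the 15 protein-coding genes per direction with the largest difference, where the higher sex averaged 5 CPM or more and its libraries did not overlap the other's, then up to 4 called members of each list, 6 genes of the growth hormone list, up to 6 genes per direction for the difference between genotypes, and 4 lincRNA genes per direction. The members and lists were chosen with earlier results of these data known. The alternatives tried were scaling by RLE or the upper quartile, no filter or 1 CPM in 3 libraries, DESeq2 1.42.0, limma-voom (limma 3.58.1), the 5 libraries alone, a replicate block, the clock score as a covariate and each library left out. Scripts were tested on simulated data. Bounds rest on 3 counts per library and, like the intervals, cover counting error only. Values of 3 genes that the naming rule selects are not reported here.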

Additional observations from a re-analysis of the deposited data

Results flagged for a closer look

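The sex difference in wild type differed from that in the Abcb11-/- liver for 1902 genes, 11% of those tested, by a direct contrast in the same edgeR fit. The named genes that passed it are given with the wild-type difference minus the knockout difference on the log2 scale, where a negative value means a larger shift to females in wild type. Most were named for their wild-type difference, which is a part of this contrast, so they are favoured to pass it. Among the genes with the largest wild-type shifts, the values were Cyp3a16 (−13.86), Sybu (−8.73), Ptp4a1 (−10.61), Cyp2a4 (−6.02), 4933411K16Rik (−10.75), Elovl3 (5.68) and Zfp992 (3.35). Among other sex-biased genes and the growth hormone axis, the values were Nipal1 (−2.98), Gstp1 (2.53), Cux2 (−3.16), Esr1 (−1.93), Trim24 (−1.78), Ghr (−3.03), Prlr (−1.90) and Onecut1 (−3.59). Among enzymes of drug and steroid metabolism, the values were Cyp3a59 (−5.23), Cyp3a25 (−2.91), Papss2 (−2.15), Ugt1a6a (−3.73), Ugt1a5 (−3.22), Gsta3 (−3.10), Fmo4 (−1.47) and Hsd17b6 (−4.76). In bile acid synthesis and transport, the values were Akr1d1 (−3.82), Cyp7a1 (−5.72), Cyp2c70 (−2.73), Atp8b1 (−1.38) and Abcc2 (−2.47). In cholesterol, lipid and glucose metabolism, the values were Sqle (−5.19), Mvk (−5.89), Sc5d (−4.26), Srebf1 (−4.04), Acot2 (2.71), Ppargc1a (−2.42), Acot3 (−2.21), Abca1 (−1.80), Irs1 (−3.83) and Pklr (−4.76). Among clock genes, the values were Tef (−3.22), Nr1d2 (−2.66), Bhlhe40 (−3.36) and Cry2 (−2.61). Among secreted proteins and iron carriers, the values were C2 (−1.58), Serpina6 (−5.28), Slc40a1 (−1.77) and Slc39a14 (−1.62). Among chaperone, macrophage, endothelial and mitochondrial genes, the values were Hspa8 (2.15), C1qa (2.26), Stab1 (1.89) and mt-Nd4l (−2.20). Among the largest differences between genotypes, the values were Ptgds (−13.94), Cyp2g1 (−11.29), R3hdml (−10.35), Pdgfrl (6.05), Mmp7 (5.72), Tuba8 (5.19), Cdkn1a (4.97) and Fam209 (4.59). Among noncoding genes, the values were Malat1 (−3.34), Gm38102 (−10.80), A530001N23Rik (−8.59), Gm6135 (−10.97), 4932422M17Rik (−10.32), 3930402G23Rik (9.38), Gm26668 (4.95) and Gm26772 (4.37). Values of genes without a count in a group are fitted and are no bounds. The wild-type males also had the lowest clock scores and the fewest genes with a count, and the part of either in these values was not tested. Groups hold 2 or 3 libraries, too few for a check of single outlying samples.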

How the results depend on the processing

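With 2 females the number of calls is sensitive to single libraries. The 4017 wild-type calls became 1777 in the 5 libraries alone and 1773 with the clock score as a covariate, and ranged from 1253 to 4641 with 1 library left out. Between genotypes, the 1902 calls became 2971 with DESeq2, 3250 with limma-voom and 536 with the clock score, and ranged from 564 to 2535 with 1 library left out. The lowest counts there were 564 without wild-type female 3, 864 without knockout non-tumour female 1, 988 without wild-type female 2 and 1205 without knockout male 1. In the knockout, the 64 calls became 680 with no low-count filter, 452 with DESeq2 and 688 with limma-voom, and ranged from 13 to 136. The cause was not tested. Calls higher in males made up 30.8% with TMM scaling, 38% with RLE, 40% with no filter, 43% with the 1 CPM filter and 41.6% with DESeq2. They made up 29.0% with the replicate block and 26.9% with the clock score. For the genotype difference, the share above 0 was 20.5% with TMM scaling, 32.9% with upper-quartile scaling, 41.6% with no filter, 32.2% with the 1 CPM filter and 37.5% with DESeq2. That share was 19.3% with the replicate block and 13.1% with the clock score. No direction of a named gene reversed under an alternative run, while the medians of some lists changed sign. Of 4017 calls 833 held under every alternative, 172 higher and 661 lower in males.

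The wild-type sexes share the replicate numbers 2 and 3, and what a shared number stands for is not given in the sources used here. Over 8243 genes, deviations from the group means correlated at −0.013 for number 2 and 0.128 for number 3. For male 1 with female 2, of unlike number, the value was 0.178. With 2 females, the deviations of the first are the negative of those of the second. These values therefore cannot show whether equal numbers mark a pair. With the replicate block 3422 wild-type, 1579 genotype-difference and 56 knockout calls were made.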
